A study of Mus musculus with 12 samples.

Results

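The genes described here are 10 components of the circadian clock in mouse liver: Clock, Npas2, Per1, Per2, Per3, Cry1, Nr1d1, Dbp, Tef and Bhlhe41. They were taken as the rows of the deposited expression table whose gene symbol was one of these names, which gave 10 probe sets of 21212, 1 for each gene. Their identifiers were 12753_at for Clock, 18143_at for Npas2, 18626_at for Per1, 18627_at for Per2, 18628_at for Per3, 12952_at for Cry1, 217166_at for Nr1d1, 13170_at for Dbp, 21685_at for Tef and 79362_at for Bhlhe41.

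RNA from the livers of 12 mice was measured on 1 Affymetrix whole-transcript array per mouse, with 300 ng of total RNA labelled for each. The groups were 3 KK males, 3 KK females, 3 C57BL/6J males and 3 C57BL/6J females. KK is an inbred strain used as a model of obesity and insulin resistance, and C57BL/6J is a common laboratory strain; the labels name no introduced allele and no treatment for either, and the strain label of the KK mice reads KK/HIJ while their source label reads KK/J. All were chow-fed and 8 weeks old, had been caged alone for 3 days and had fasted for 4 hours. Death was by cervical dislocation, PBS was perfused, and tissue of the large lobe stood in RNAlater for 24 hours. The labels name no time of day, litter, scan date or hybridisation batch. Each mouse gave 1 sample at 1 time, so a difference in mean level, in amplitude and in phase cannot be told apart.

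The clock is a loop of transcription factors and their own repressors that runs with a period close to a day in nearly every cell. CLOCK, or its relative NPAS2, pairs with BMAL1 (the product of Arntl) on E-box elements and switches on the Per and Cry genes, whose proteins return to the nucleus and shut the pair down. The same pair drives Nr1d1, which encodes the heme-binding repressor REV-ERBα that acts on ROR elements such as those of Arntl, and Bhlhe41, which encodes DEC2, a repressor that competes for E-boxes. Dbp and Tef encode PAR bZIP activators that bind D-boxes and carry the rhythm to genes of hepatic metabolism and detoxification.

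Values are log2 expression, so a difference of 1 is a doubling, and levels of different genes are not set against each other because each probe set has its own response. Differences come from 1 limma fit to all 12 arrays with a mean for each group, and a gene was called at an adjusted p under 0.05 over all 21212 probe sets. Errors written ± are SDs over the 3 mice of a group, or standard errors (SE) of the fit where so named. The limma p-values set a difference against the spread within groups, pooled over the 4 groups and moderated over all probe sets. With 1 array per mouse, variation between mice and between arrays cannot be told apart.

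The E-box and D-box letters occur close to the start of several members, and the windows of 5 genes that differed by strain in at least 1 comparison or were among those that moved together between mice are shown for that reason. A window of 300 bases, 250 before and 50 from the annotated start, was available from RefSeq (build GRCm38.p6) for 9 of the 10 genes, in 13 windows. The gene without a window was Per2. The letters CACGTG (E-box), TTATGNAA (D-box) and TAGGTCA (ROR element) were searched on both strands, and no 2 matches overlapped. Capitals mark a match, and the sequences run 5′ to 3′ on the strand of the gene. They are Per1 at chr11:69098699-69098998 on the plus strand, Bhlhe41 at chr6:145865371-145865670 on the minus strand, Tef at chr15:81802423-81802722 on the plus strand, Per3 at chr4:151044616-151044915 on the minus strand and Nr1d1 at chr11:98775328-98775627 on the minus strand.
Per1: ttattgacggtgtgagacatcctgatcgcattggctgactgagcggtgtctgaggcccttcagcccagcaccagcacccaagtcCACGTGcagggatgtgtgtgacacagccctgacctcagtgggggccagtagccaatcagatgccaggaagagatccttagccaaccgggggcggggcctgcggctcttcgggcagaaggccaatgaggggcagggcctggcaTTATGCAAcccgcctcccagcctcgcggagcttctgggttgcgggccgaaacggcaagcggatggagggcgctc
Bhlhe41: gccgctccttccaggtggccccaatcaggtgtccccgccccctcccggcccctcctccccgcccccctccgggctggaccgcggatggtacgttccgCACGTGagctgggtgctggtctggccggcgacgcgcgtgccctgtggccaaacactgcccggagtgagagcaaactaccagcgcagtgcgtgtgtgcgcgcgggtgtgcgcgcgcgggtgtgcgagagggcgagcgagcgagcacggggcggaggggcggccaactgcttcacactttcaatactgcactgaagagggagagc
Tef: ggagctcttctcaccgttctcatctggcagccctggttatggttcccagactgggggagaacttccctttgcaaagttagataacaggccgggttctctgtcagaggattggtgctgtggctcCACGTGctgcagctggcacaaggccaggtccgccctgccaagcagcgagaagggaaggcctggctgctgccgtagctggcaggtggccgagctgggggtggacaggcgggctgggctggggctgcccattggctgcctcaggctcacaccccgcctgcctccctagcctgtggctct
Per3: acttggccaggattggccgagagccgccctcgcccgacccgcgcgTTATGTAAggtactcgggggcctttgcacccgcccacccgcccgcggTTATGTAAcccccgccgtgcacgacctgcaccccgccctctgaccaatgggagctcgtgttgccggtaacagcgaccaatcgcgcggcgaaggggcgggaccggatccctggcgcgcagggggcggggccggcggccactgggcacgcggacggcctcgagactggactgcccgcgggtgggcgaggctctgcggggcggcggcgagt
Nr1d1: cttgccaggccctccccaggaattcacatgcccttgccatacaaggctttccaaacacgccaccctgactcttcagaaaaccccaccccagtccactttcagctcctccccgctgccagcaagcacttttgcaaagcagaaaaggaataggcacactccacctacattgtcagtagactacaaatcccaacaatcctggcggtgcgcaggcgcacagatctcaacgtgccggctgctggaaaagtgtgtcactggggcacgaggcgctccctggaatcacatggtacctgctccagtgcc

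In these windows Per1 held an E-box that began 166 bases before the start and a D-box that began 24 bases before it. The E-box of Bhlhe41 began 153 bases before the start and that of Tef 127 bases before it. Per3 held 2 D-boxes, which began 205 and 158 bases before its start. Nr1d1 held none of the letters in this window, and neither did Dbp, whose window is not printed. Per1 has a second annotated start, whose window at chr11:69099902-69100201 held none of them. Tef also has a second, whose window at chr15:81811164-81811463 held an E-box that began 138 bases before that start. Over all windows of the members, an E-box was found for 4 genes, the fourth being Cry1, and a D-box for 2 genes. Counted by window, 5 of the 13 held an E-box and 2 a D-box. Of all 32851 RefSeq windows of this length 7.15% held the E-box letters, 3.38% the D-box letters and 2.61% the ROR letters, of which the members held none. These matches describe letters only.

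Over both sexes, Per2 and Bhlhe41 were higher in KK livers and Nr1d1 was lower, and the other 7 members were not called. Thus 3 of 10 members were called, against 11.7% of all probe sets, with 5.42% called higher and 6.31% called lower. The members and the other gene lists were chosen with earlier results of these data known. Shares beside their counts are therefore a description and no test of an excess. At an unadjusted p under 0.05 there were 4 members, the fourth being Per1. No share of all probe sets was taken at that cut-off for the strain, sex or interaction comparisons. Counts at it are given without one. The median difference of the members was 0.09, and that of all probe sets was 0.01. Fewer cells of a type and less RNA per cell cannot be told apart in these bulk samples.

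**Figure D1:**
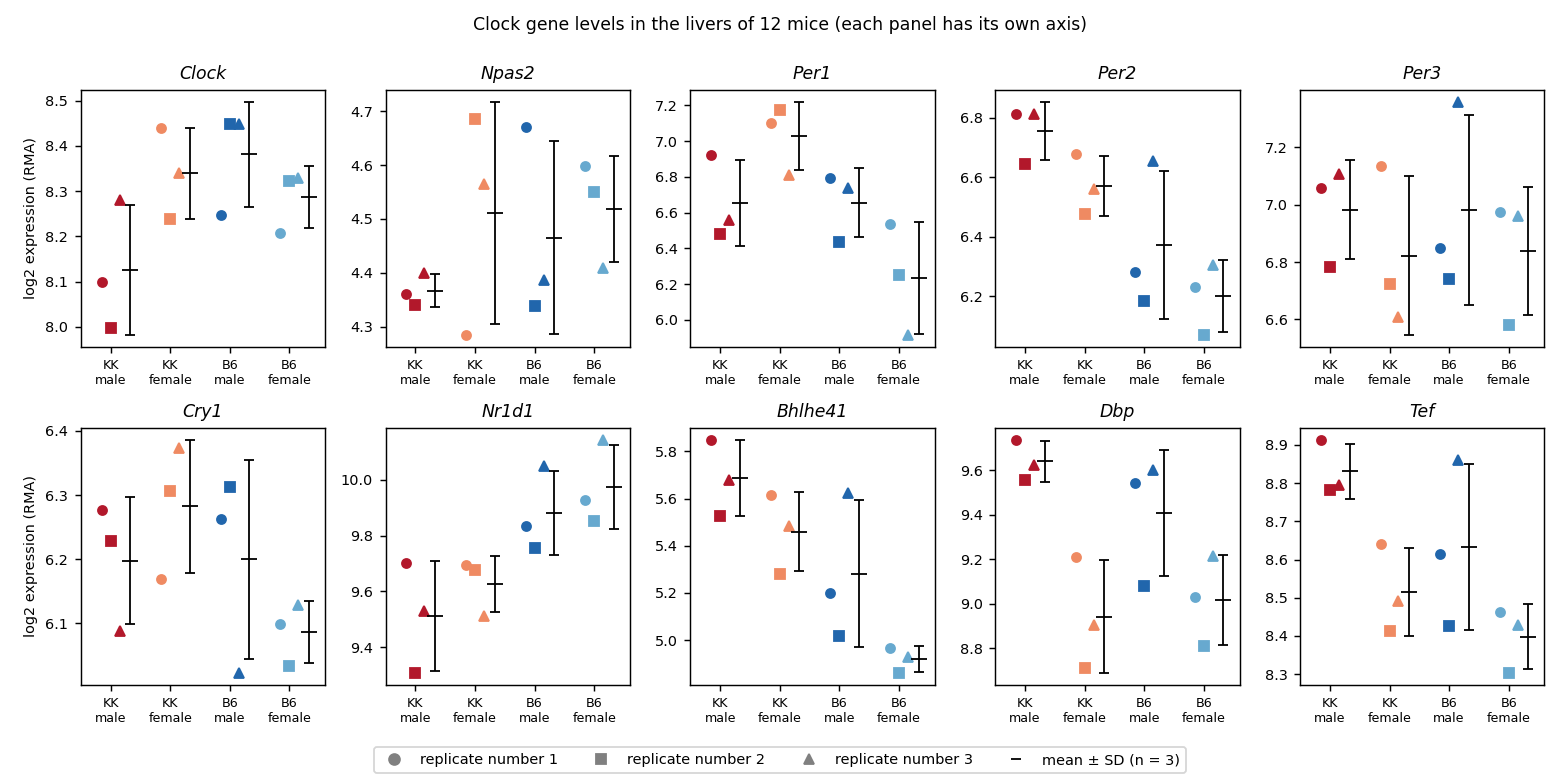
Log2 expression of the 10 clock genes in each of the 12 livers, with a panel and an axis of its own for each gene. Points are single mice, with the marker giving the replicate number in the title, and black bars are the mean ± SD of 3 mice; the 6 KK values of Nr1d1 lie below the 6 C57BL/6J values, and Bhlhe41 and Per2 are higher in KK but for the C57BL/6J male with replicate number 3.

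Clock, the DNA-binding activator of the loop, read 8.10, 8.00 and 8.28 in KK males and 8.44, 8.24 and 8.34 in KK females, against 8.25, 8.45 and 8.45 in C57BL/6J males and 8.21, 8.32 and 8.33 in C57BL/6J females. The groups overlapped, and the KK males lay low, with only their highest mouse inside the range of the C57BL/6J males. The strain difference was -0.10 over both sexes (SE 0.06, adjusted p = 0.413) and -0.26 in males (SE 0.09, adjusted p = 0.148). With array weights the male difference was called (-0.28, adjusted p = 0.0292). The male minus female difference was -0.21 in KK (adjusted p = 0.278) and 0.09 in C57BL/6J (adjusted p = 0.964).

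Npas2, the relative that can take the place of CLOCK, read 4.36, 4.34 and 4.40 in KK males and 4.28, 4.69 and 4.56 in KK females, against 4.67, 4.34 and 4.39 in C57BL/6J males and 4.60, 4.55 and 4.41 in C57BL/6J females. The groups overlapped throughout. For scale, 3 Y-linked probe sets in the 6 female arrays, which have no such transcript, read 3.79 to 4.66, although probe sets differ in their response and this is no detection call. Of the 12 Npas2 values 10 lay in that range. The strain difference was -0.05, with a 95% interval of -0.22 to 0.12.

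Per2, a core repressor of the CLOCK pair, read 6.81, 6.64 and 6.81 in KK males and 6.68, 6.48 and 6.56 in KK females, against 6.28, 6.18 and 6.65 in C57BL/6J males and 6.23, 6.07 and 6.30 in C57BL/6J females. Of the 6 C57BL/6J mice 5 lay below every KK mouse, and the exception was the male with replicate number 3. Per2 averaged 6.76 ± 0.10 in KK males and 6.57 ± 0.10 in KK females, against 6.37 ± 0.25 in C57BL/6J males and 6.20 ± 0.12 in C57BL/6J females. The difference of 0.38 (SE 0.08, a 1.30-fold higher level in KK, adjusted p = 0.00929) was of like size in males, at 0.38, and in females, at 0.37. Neither sex alone was called, at adjusted p of 0.0853 in males and 0.0877 in females. Without the C57BL/6J male with replicate number 3 these became 0.0116, with a male difference of 0.52, and 0.0268. Of the 12 arrays left out in turn, this was the only 1 that gave a call in either sex. Over those fits adjusted p reached 0.278 in males and 0.275 in females, and the male difference went down to 0.29. With the array spread as a covariate or with array weights both sexes were also called.

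Per1, the paralog of Per2 that hormonal and fasting signals also induce acutely, read 6.93, 6.48 and 6.56 in KK males and 7.10, 7.17 and 6.81 in KK females, against 6.80, 6.43 and 6.74 in C57BL/6J males and 6.54, 6.25 and 5.92 in C57BL/6J females. In females every KK mouse lay above every C57BL/6J mouse, while in males the ranges overlapped. Per1 averaged 7.03 ± 0.19 in KK females and 6.23 ± 0.31 in C57BL/6J females. The difference in females was 0.79 (SE 0.17, 1.73-fold higher in KK, adjusted p = 0.0139), and in males it was -0.00, with a 95% interval of -0.37 to 0.36 (adjusted p = 0.996).

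The difference between those strain effects of Per1, males minus females, was -0.80 (SE 0.24). Its unadjusted p was 0.00563 and its adjusted p 0.503, so Per1 was not shown to differ by strain in 1 sex more than in the other. With array weights it was -0.37 (adjusted p = 0.476). None of the members was called for the interaction, against 0.141% of all probe sets, and 2 had an unadjusted p under 0.05, the other being Clock at -0.31. The Per1 call in females was lost with array weights (0.56, adjusted p = 0.0546). It was also lost without the KK female with replicate number 1 (adjusted p = 0.0532), the KK female with number 2 (0.0539) or the C57BL/6J female with number 3 (0.0541).

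Over both sexes Per1 lay at the threshold, with a difference of 0.40 (SE 0.12, adjusted p = 0.0501). It was called after cyclic loess normalization (adjusted p = 0.0490), among the brighter probe sets (0.0275), with an intensity trend (0.0413), with array weights (0.0397) and with the array spread as a covariate (0.0443), but not after quantile normalization (0.0509). It was also called without the KK male with number 2 (adjusted p = 0.0483), the KK female with number 3 (0.0371) or the C57BL/6J female with number 1 (0.0215), and stayed uncalled without any of the other 9 arrays.

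Per3, the third member of the family, read 7.06, 6.78 and 7.11 in KK males and 7.13, 6.72 and 6.61 in KK females, against 6.85, 6.74 and 7.36 in C57BL/6J males and 6.97, 6.58 and 6.96 in C57BL/6J females. Its groups overlapped throughout, and the SD within a group was 0.17 in KK males, 0.28 in KK females, 0.33 in C57BL/6J males and 0.22 in C57BL/6J females. The strain difference was -0.01, with a 95% interval of -0.28 to 0.27. Of the variation of Per3 over the 12 arrays 11.6% lay between the 4 groups, against 73.2% for Per2 and 67.5% for Per1.

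Cry1, the cryptochrome that represses the CLOCK pair together with the PER proteins, read 6.28, 6.23 and 6.09 in KK males and 6.17, 6.31 and 6.37 in KK females, against 6.26, 6.31 and 6.02 in C57BL/6J males and 6.10, 6.03 and 6.13 in C57BL/6J females. The KK females lay just above the C57BL/6J females without overlap, and the males overlapped. The strain difference was 0.10 over both sexes (95% interval -0.04 to 0.23) and 0.20 in females (adjusted p = 0.278).

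Nr1d1, the REV-ERBα repressor gene, read 9.70, 9.31 and 9.53 in KK males and 9.70, 9.68 and 9.51 in KK females, against 9.83, 9.76 and 10.05 in C57BL/6J males and 9.93, 9.85 and 10.14 in C57BL/6J females. All 6 KK mice lay below all 6 C57BL/6J mice, which held for 5.98% of all probe sets in either direction and for no other member. Nr1d1 averaged 9.51 ± 0.20 in KK males and 9.63 ± 0.10 in KK females, against 9.88 ± 0.15 in C57BL/6J males and 9.97 ± 0.15 in C57BL/6J females. The difference was -0.36 (SE 0.08, a 1.28-fold lower level in KK, adjusted p = 0.0123). It was -0.37 in males (adjusted p = 0.10) and -0.35 in females (adjusted p = 0.111), where neither was called by itself. With the array spread as a covariate the female difference was called (-0.37, adjusted p = 0.0300), and with array weights the male difference was -0.22 (adjusted p = 0.180).

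Bhlhe41, the DEC2 gene, read 5.85, 5.53 and 5.68 in KK males and 5.61, 5.28 and 5.48 in KK females, against 5.20, 5.02 and 5.62 in C57BL/6J males and 4.97, 4.86 and 4.93 in C57BL/6J females. As for Per2, the C57BL/6J male with replicate number 3 was the single C57BL/6J mouse inside the KK range. Bhlhe41 averaged 5.69 ± 0.16 in KK males and 5.46 ± 0.17 in KK females, against 5.28 ± 0.31 in C57BL/6J males and 4.92 ± 0.05 in C57BL/6J females. The difference was 0.47 (SE 0.10, 1.39-fold higher in KK, adjusted p = 0.00789), with 0.40 in males (adjusted p = 0.142) and 0.54 in females (adjusted p = 0.0396).

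Without the C57BL/6J male with number 3 the Bhlhe41 difference in males was 0.58 (adjusted p = 0.0204), and it was also called with array weights (0.57, adjusted p = 0.00862) and with the array spread as a covariate (0.48, adjusted p = 0.0313). No other single array left out gave a call in males, with a difference down to 0.27 and an adjusted p up to 0.409. The call in females was lost after quantile (adjusted p = 0.0652) or cyclic loess normalization (0.0733). It was lost as well without the KK male with number 3 (0.0502), the KK female with number 1 (0.150) or 3 (0.104), the C57BL/6J male with number 1 (0.0528), or the C57BL/6J female with number 1 (0.0856), 2 (0.124) or 3 (0.0999). Over both sexes, in contrast, Per2, Nr1d1 and Bhlhe41 stayed called in each of the other settings run and without any 1 of the 12 arrays, with adjusted p up to 0.0273 for Per2, 0.0322 for Nr1d1 and 0.0263 for Bhlhe41. The filter on brighter probe sets left Bhlhe41 out, so that setting gave it no value.

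Within a sex the counts were small, and shares of called probe sets are those at an adjusted p under 0.05. In males none of the 10 members was called, against 5.15% of all probe sets, and 4 had an unadjusted p under 0.05. In females Per1 and Bhlhe41 were called higher in KK, which is 2 of 10 against 6.5% of all probe sets called and 3.18% called higher, and 5 had an unadjusted p under 0.05. Ranges of the strains did not overlap for 1 member in males, against 21.7% of all probe sets, and for 5 members in females, against 20.6%.

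**Figure D2:**
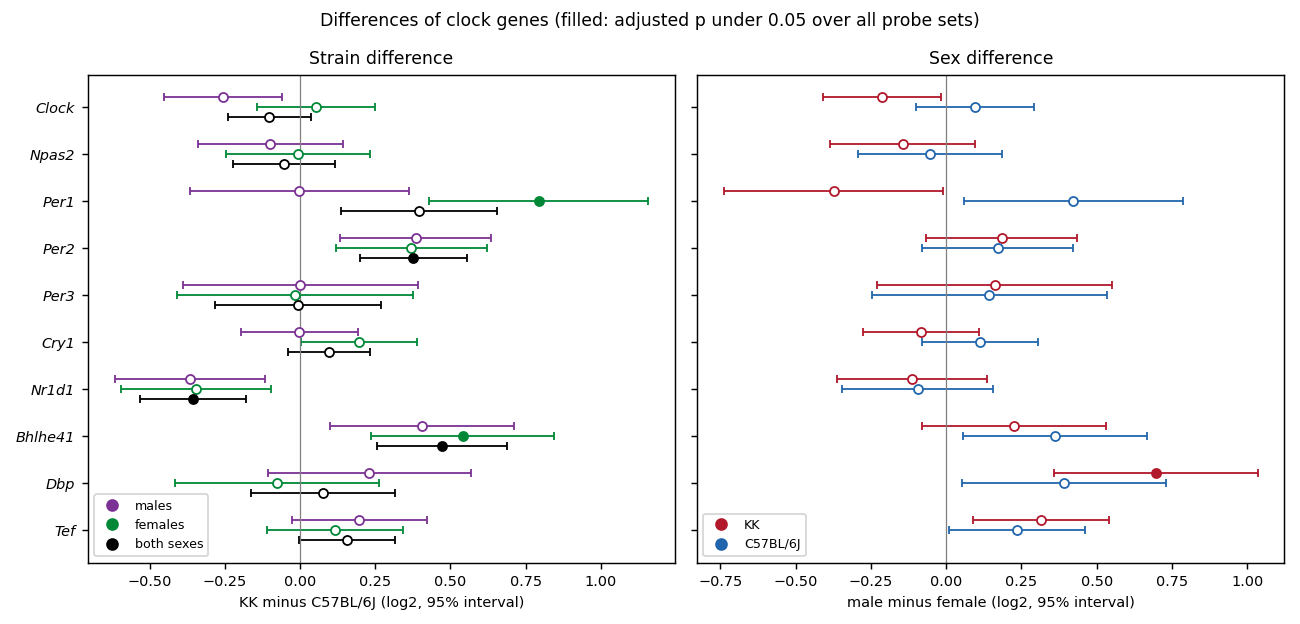
Strain differences (left, KK minus C57BL/6J in males, females and both sexes) and sex differences (right, male minus female in each strain) of the 10 genes on the log2 scale, with 95% intervals from the fit. Filled points were called over all probe sets: Per2, Bhlhe41 and Nr1d1 for strain over both sexes, Per1 and Bhlhe41 in females, and Dbp for sex in KK.

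Dbp, the PAR bZIP activator of hepatic output genes, read 9.74, 9.55 and 9.62 in KK males and 9.21, 8.71 and 8.90 in KK females, and 9.54, 9.08 and 9.60 in C57BL/6J males and 9.03, 8.81 and 9.21 in C57BL/6J females. Every KK male lay above every KK female, and the sexes of C57BL/6J overlapped through the male with number 2 and the female with number 3. Dbp averaged 9.64 ± 0.09 in KK males and 8.94 ± 0.25 in KK females. The male minus female difference in KK was 0.70 (SE 0.16, 1.62-fold higher in males, adjusted p = 0.0394), and in C57BL/6J it was 0.39 (SE 0.16, adjusted p = 0.494).

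The test of the difference between the strains in the sex effect of Dbp gave 0.31 (SE 0.22, adjusted p = 0.865), so the sex difference was not shown to differ between the strains. The strain difference of Dbp itself was 0.08 (95% interval -0.16 to 0.32). The call in KK was lost when only the KK arrays were fitted (adjusted p = 0.0622). It was lost without the KK male with number 1 (0.156), 2 (0.104) or 3 (0.0738), the KK female with number 2 (0.0915) or 3 (0.0912), the C57BL/6J male with number 1 (0.0510) or the C57BL/6J female with number 1 (0.0646).

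Tef, the second PAR bZIP activator, read 8.91, 8.78 and 8.80 in KK males and 8.64, 8.41 and 8.49 in KK females, and 8.61, 8.43 and 8.86 in C57BL/6J males and 8.46, 8.30 and 8.43 in C57BL/6J females. The sexes of KK did not overlap, and those of C57BL/6J did. The male minus female difference was 0.32 in KK (SE 0.10, adjusted p = 0.162) and 0.24 in C57BL/6J (SE 0.10, adjusted p = 0.584), and neither was called. With array weights Tef was called in KK (0.37, adjusted p = 0.0292).

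By sex, 1 of 10 members was called in KK, against 2.17% of all probe sets and 0.698% called higher, and none in C57BL/6J, against 1.03%. In each strain 4 members had an unadjusted p under 0.05, a cut-off at which no share was taken. Those in KK were Dbp, Tef, Clock and Per1, and those in C57BL/6J were Dbp, Tef, Bhlhe41 and Per1. Per1 ran in opposite directions, at -0.37 in KK and 0.42 in C57BL/6J (adjusted p = 0.307 and 0.491), and with array weights these were -0.13 and 0.24. Bhlhe41 was higher in males by 0.36 in C57BL/6J without overlap (adjusted p = 0.469) and by 0.23 in KK (adjusted p = 0.452). Ranges of the sexes did not overlap for 2 members in KK, against 18.6% of all probe sets, and for 1 in C57BL/6J, against 13.1%.

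Markers of Kupffer cells, the resident macrophages of the liver, moved with sex in KK beside Dbp. Of 6 such markers 5 were called lower in KK males than in KK females, against 2.17% of all probe sets called in either direction. The marker list was chosen with earlier results known, so that share is a description only. The mean log2 level of the 6 was 7.36 to 7.80 in KK males and 8.27 to 9.05 in KK females, with none at 0. In the same comparison 1 of 6 sinusoidal endothelial markers was called lower, 1 of 8 hepatocyte markers higher, and the erythroid marker Alas2 higher by 0.74. The mean of the 8 hepatocyte markers was 12.93 to 13.03 in KK males and 13.00 to 13.03 in KK females. In C57BL/6J the Kupffer markers went the same way, with a median male minus female difference of -0.46, against -1.14 in KK. None of the 6 was called in C57BL/6J by limma, and 2 had an unadjusted p under 0.05. The part of these markers in the Dbp difference was not tested.

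Over both sexes the strain calls stood beside 3 of 6 Kupffer cell, 2 of 6 sinusoidal endothelial, 1 of 6 stellate cell and 1 of 8 hepatocyte markers called lower in KK. Of all probe sets 6.31% were called lower. The median strain difference of the Kupffer markers was -0.64 in males and 0.14 in females, with 1 of 6 called lower in each. For the interaction 0 of the 6 were called by limma and 4 had an unadjusted p under 0.05. Their strain difference was thus not shown to differ between the sexes. None of 4 cholangiocyte or 5 lymphocyte markers was called by limma, with 1 and 0 at an unadjusted p under 0.05. The mean log2 level of the Kupffer markers was 7.36 to 9.05 in KK and 7.85 to 8.61 in C57BL/6J, and that of the endothelial markers was 8.30 to 8.80 in KK and 8.47 to 8.87 in C57BL/6J. The single erythroid marker with a value, Alas2, was called higher, at 9.77 to 10.72 in KK and 8.01 to 10.08 in C57BL/6J. The part of these markers in the clock gene differences was not tested.

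Several members moved together from mouse to mouse within a group. Taking each mouse as its deviation from the mean of its group, Per2, Per3, Nr1d1, Bhlhe41, Dbp and Tef went the same way, a grouping made after the values were seen. All 15 pairs among these 6 genes were positively correlated over the 12 mice, with Pearson's r of 0.63 to 0.95 and Spearman's rho of 0.64 to 0.92. An exact permutation test within groups (1296 arrangements, two-sided, adjusted over all 45 pairs of members) called 5 of the 15 by r and 0 by rho.

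The closest pair was Bhlhe41 with Tef, at r = 0.95 and rho = 0.92 (exact permutation p = 0.00077, the smallest the test can give, adjusted 0.0347; for rho p = 0.00154, adjusted 0.0521). Without the 2 mice farthest from the median of Bhlhe41 it was 0.87. The other called pairs were Per2 with Per3, with Bhlhe41 and with Tef, each at r = 0.92, and Dbp with Tef at 0.87, all with an adjusted exact permutation p of 0.0486. After the 2 farthest mice were left out, r over the 15 pairs was 0.59 to 0.89. With any 1 mouse left out it was 0.52 to 0.97.

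Nr1d1, whose strain difference had the opposite sign to those of Per2 and Bhlhe41, had positive r between mice of a group with Per2 (0.77, adjusted exact permutation p = 0.0617) and with Bhlhe41 (0.67, adjusted 0.109), neither called. Of the 30 pairs that included Clock, Npas2, Per1 or Cry1 none passed the same exact permutation test, with 1 at an unadjusted p under 0.05, and r was -0.68 to 0.42. Cry1 ran against Per3 (r = -0.68) and Per2 (r = -0.64), neither called.

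**Figure D3:**
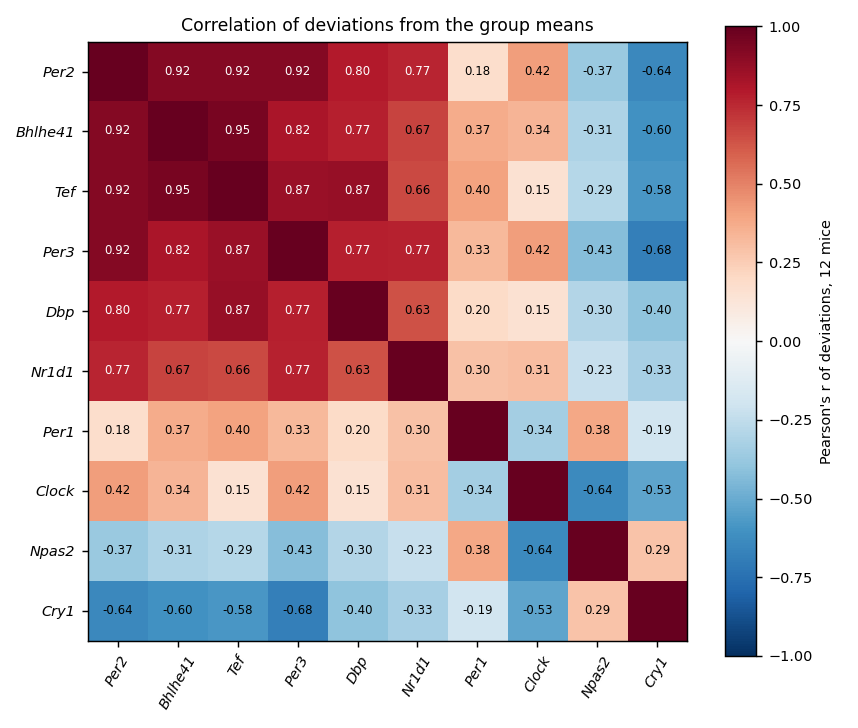
Pearson's r between the deviations of 2 genes from their group means, over 12 mice, for all 45 pairs of members. Per2, Bhlhe41, Tef, Per3, Dbp and Nr1d1 form a block of positive values of 0.63 to 0.95, and the pairs of Cry1 and Npas2 with this block are below 0.

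The shared movement lined up in part with the replicate number in the sample titles, whose meaning the labels do not give. The mouse with number 2 was the lowest of its group in all 4 groups for Per2, Bhlhe41, Dbp and Tef, and in 3 groups for Per3 and Nr1d1. Number 2 was lowest in all 4 groups for 3.71% of all probe sets and in at least 3 for 17.9%. On average the mice with number 2 deviated from their group mean by -0.21 for Dbp, -0.20 for Per3, -0.16 for Bhlhe41, -0.13 for Per2, -0.11 for Tef and -0.10 for Nr1d1.

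For Dbp that offset stood beside a sex difference of 0.70 in KK and a strain difference of 0.08. By limma's F test of the replicate number the unadjusted p was 0.00541 for Dbp, 0.0269 for Per2, 0.0320 for Per1 and 0.0400 for Bhlhe41. Per1 followed another order, highest on average at number 1 (0.20) and lowest at number 3 (-0.14). None of the members and 0 of all probe sets was called after adjustment, while 19.3% of all probe sets had an unadjusted p under 0.05.

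**Figure D4:**
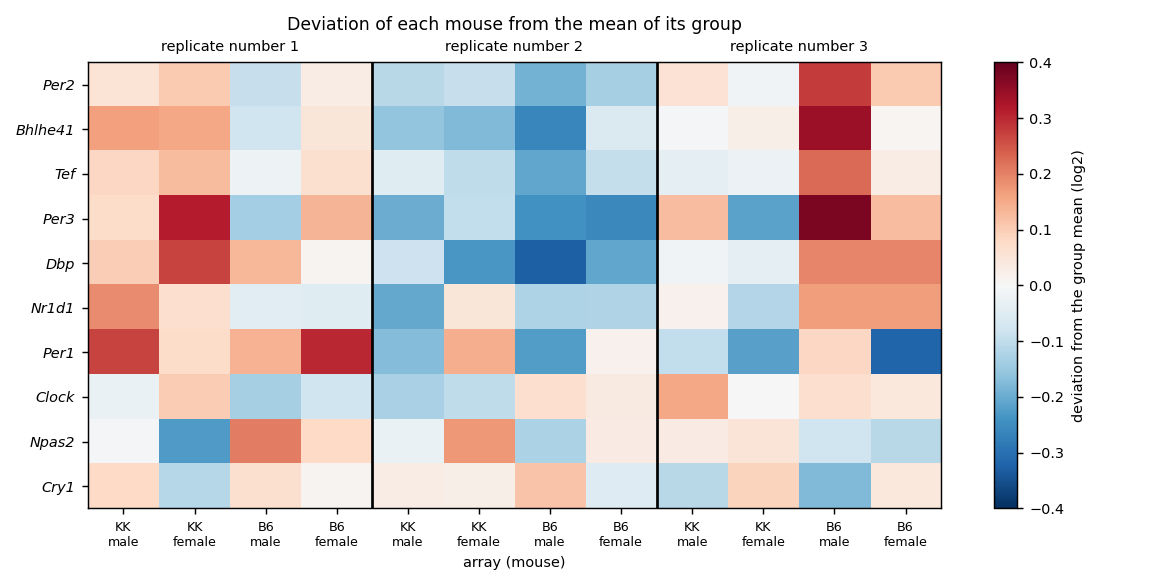
Deviation of each mouse from the mean of its group (log2, colour) for the 10 genes, with arrays ordered by the replicate number of their title. The 4 mice with number 2 are below their group means for Per2, Bhlhe41, Tef, Per3 and Dbp, and the C57BL/6J male with number 3 is the highest mouse of its group for those 5 genes and Nr1d1.

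The array with number 2 also had the smallest spread of its group in 3 of 4 groups, and of the members Per2 was called for its correlation with that spread. The interquartile range of an array over all probe sets was 2.64 to 2.97 log2 units, and its deviation from the group mean correlated with that of Per2 at r = 0.78 and rho = 0.82 (exact permutation p = 0.00386 and 0.00231, adjusted over the 10 members 0.0386 and 0.0231), and r was 0.81 without the 2 farthest arrays. For the other 9 members r lay between -0.56 for Npas2 and 0.76 for Per3, none called, with Clock at 0.75. At r of 0.6 or more with the array spread lay 6 of the 10 members and 20.8% of all probe sets, and at 0.8 or more none of the members and 8.24% of all probe sets.

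After the array spread was taken out, r over the 15 pairs of the 6 genes was 0.40 to 0.93, with 0.93 for Bhlhe41 and Tef. The share of all probe sets that reached r of 0.8 or more was 2.59% for Per2, 2.56% for Per3, 1.05% for Dbp, 0.834% for Tef, and 0.764% each for Bhlhe41 and Nr1d1. At r of 0.6 or more, the range that holds all 15 pairs, the share was 13.7% for Per2, 12.1% for Per3, 8.79% for Dbp, 7.86% for Bhlhe41, 7.25% for Nr1d1 and 7.06% for Tef.

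The genes most like each member in these deviations were looked up over all named probe sets, with no test. For Bhlhe41 they were Sclt1 (r = 0.96), Tef (0.95) and Zdhhc6 (0.95), and for Tef they were Cldn10 (0.95), Bhlhe41 (0.95) and Depdc5 (0.95). Dbp was closest to Pfkfb2 (0.96), Nsmce2 (0.94) and Dclre1a (0.94). Bhlhe41 and Tef were the only members with another member among their nearest 3.

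Per2 was nearest to Zdhhc6 (r = 0.98), Nbr1 (0.97) and Ttc7 (0.96), Per3 to Dync1h1 (0.97), Zzef1 (0.97) and Nr2c2 (0.97), and Per1 to Omg (0.97), Foxo3 (0.93) and Mlxip (0.92). Nr1d1 was nearest to Znrf3 (0.96), Tns2 (0.95) and Myo10 (0.94), and Cry1 to Plagl2 (0.95), Bpifb2 (0.93) and Gsto1 (0.93). Clock was nearest to Dtx3l (0.98), Ik (0.97) and Eif5 (0.96), and Npas2 to Clcf1 (0.97), Olfr322 (0.96) and Acan (0.95). With 12 mice and 21212 probe sets, values of this size are found for every member.

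Other genes of the clock were not called by strain. Of 17 further clock genes 15 had a probe set, and none was called by limma over both sexes, with 0 at an unadjusted p under 0.05 and differences of -0.12 to 0.45. Arntl, whose product BMAL1 is the partner of CLOCK and whose gene REV-ERBα represses, averaged 6.42 in KK and 6.42 in C57BL/6J, a difference of 0.00 (95% interval -0.20 to 0.20). The strain difference of Arntl was -0.16 in males (limma adjusted p = 0.609) and 0.16 in females (adjusted p = 0.659). Its KK males lay below the KK females without overlap, at -0.40, which was not called (adjusted p = 0.156). The difference of 0.45 belonged to Ciart, a repressor of the CLOCK pair, with a 95% interval of -0.06 to 0.95 (adjusted p = 0.297). It averaged over -0.24 in males (adjusted p = 0.780) and 1.13 in females (adjusted p = 0.0672), neither called, and was 0.24 without the C57BL/6J male with replicate number 2. None of the 15 was called in any other of the 6 comparisons, and 3 had an unadjusted p under 0.05 in females.

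Among genes known to cycle in liver downstream of the clock, 3 were called higher and 4 lower in KK, against 5.42% and 6.31% of all probe sets. As this list was chosen with earlier results known, these shares do not test an excess. The list held 17 genes, of which 16 had a probe set, with a median difference of -0.14 against 0.01 for all probe sets. Rgs16, a regulator of G protein signalling that responds to fasting and feeding, averaged 7.79 in KK and 9.66 in C57BL/6J, a difference of -1.87 (SE 0.21, 3.64-fold lower, adjusted p = 0.000108). Klf10, a Krüppel-like transcription factor, differed by -0.81 (SE 0.12, adjusted p = 0.000893) and Gys2, the hepatic glycogen synthase, by -0.50 (SE 0.09, adjusted p = 0.00303).

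Higher in KK were Alas1, the rate-limiting enzyme of hepatic heme synthesis, by 1.13 (SE 0.11, 2.18-fold, adjusted p = 2.9e-05), Noct, the deadenylase-like protein nocturnin, by 0.73 (SE 0.12, adjusted p = 0.00169), and Usp2, a ubiquitin protease, by 0.70 (SE 0.13, adjusted p = 0.00394). The 6 KK values did not overlap the 6 C57BL/6J values for Rgs16, Klf10, Alas1 and Noct. Over both sexes these 6 calls held in each of the other settings and without any 1 array. Within a sex Rgs16, Klf10 and Alas1 were called in both, with Alas1 at 1.64 in males and 0.61 in females. In males Noct (0.41, limma adjusted p = 0.241) and Usp2 (0.47, adjusted p = 0.211) were not called, and in females Gys2 (-0.46, adjusted p = 0.0538) was not. None of the 6 was called for the interaction.

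**Figure D5:**
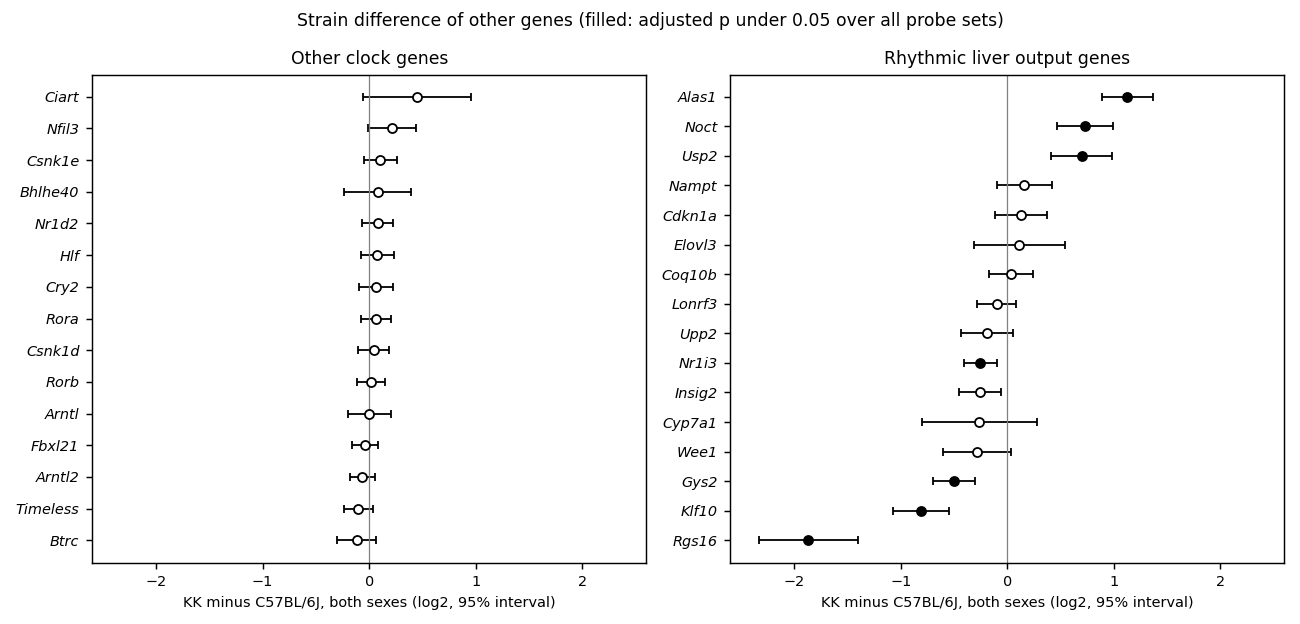
Strain difference over both sexes (KK minus C57BL/6J, log2, with 95% intervals) of 15 further clock genes (left) and 16 rhythmic liver output genes (right); filled points were called over all probe sets. No point on the left is filled, while 3 on the right are filled above 0 and 4 below 0.

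Lists of genes that respond to hormones, food and handling were first counted over both sexes. There 5.42% of all probe sets were called higher and 6.31% lower. These lists too were chosen with earlier results of these data known. Of 8 glucocorticoid-induced genes 2 were called higher and 2 lower in KK. Of 10 measured fasting and feeding genes none was called higher and 1 lower, of 7 heat and cold shock genes 2 lower, and of 10 immediate early genes 1 lower. In females alone 3 of the glucocorticoid-induced genes and 3 of the fasting and feeding genes were called higher in KK, against 3.18% of all probe sets, and none of either lower. In males none of either was called higher, and 2 of the glucocorticoid-induced and none of the fasting and feeding genes were called lower, against 5.15% of all probe sets called in either direction. The part of these lists in the clock gene differences, that of Per1 in females included, was not tested.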

How the data were processed

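Liver RNA of 12 mice was measured on 1 Affymetrix whole-transcript array each. The deposited values are log2 expression per probe set, made by the authors with RMA and the affy package per the submitters' processing notes; their versions and the probe-to-gene build are not given in the sources used here. Replicates were not pooled. Depth has no counterpart on arrays, and the 3 mice per group limit the precision.

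Groups came from the strain and the letter for sex in the labels. Symbols came from the platform annotation: 18786 probe sets had exactly 1 symbol, 6 had several and 2420 had none. All 12 arrays and all 21212 probe sets, unfiltered and as deposited, were fitted with limma 3.58.1 (lmFit, eBayes) in R 4.3.3 with 4 group means. The 6 comparisons were the strain difference (KK minus C57BL/6J) in males, in females and averaged over them, the sex difference (male minus female) within each strain, and the interaction, in which the female strain difference is taken from the male one. Two-sided p-values were adjusted by Benjamini-Hochberg over all probe sets. On simulated data with 67 probe sets changed 1.5-fold, the pipeline recovered 89.6% for the strain difference over both sexes, 73.1% in males, 80.6% in females, 68.7% and 74.6% for sex in KK and C57BL/6J, and 44.8% for the interaction. The simulated errors were independent between probe sets and arrays, and no change below 1.5-fold was simulated. The strain calls of members over both sexes were 1.28- to 1.39-fold, so these rates do not give the recovery of changes of that size.

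The members and the 14 other gene lists were chosen with earlier results of these data known. Named genes are the 10 members, up to 6 called genes of a list by smallest adjusted p in the strain comparison, and for likeness the 3 named genes with the highest r; of the lists other than the clock and output genes only counts are given, apart from Alas2 and Tsc22d3, and Arntl and Ciart were named after their values were seen. The label check held: in each strain Xist was called higher in females and 3 Y-linked genes higher in males. Replicate numbers of the titles were checked by correlating the deviations of same-number arrays from different groups. Of 18 such pairs 10 lay above 0.1 (range -0.36 to 0.48). The pairs of number 2 (0.05 to 0.43) and of number 3 (0.06 to 0.48) were all positive, and those of number 1 were mixed (-0.36 to 0.15). What the numbers mark was not tested, and the main fits hold no block for them. Other settings were a second normalization of the table (quantile, or cyclic loess), a filter that kept the brighter probe sets (mean above the median), eBayes with trend and robust options, arrayWeights, a block for the replicate number, a covariate for the interquartile range of the array, a fit to the compared groups alone, and fits with 1 array removed.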

Additional observations from a re-analysis of the deposited data

Results flagged for a closer look

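Tsc22d3, which encodes the glucocorticoid-induced leucine zipper protein and stands on the list of glucocorticoid-induced genes, had a strain difference that differed between the sexes by the interaction test. It read 8.45, 8.15 and 7.86 in KK males and 9.12, 9.15 and 9.39 in KK females, against 8.66, 8.19 and 8.35 in C57BL/6J males and 8.28, 8.13 and 7.96 in C57BL/6J females. The KK females lay above all other mice. The strain difference was -0.25 in males (limma adjusted p = 0.469) and 1.10 in females (adjusted p = 0.000987), and the difference between them was -1.35 (SE 0.22, adjusted p = 0.0372). It was not called after quantile (adjusted p = 0.0744) or cyclic loess normalization (0.0840), and with 1 array left out it was called only without the KK male with replicate number 1 (0.0200) or the C57BL/6J male with number 2 (0.0455), with up to 0.114 without another.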

How the results depend on the processing

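Over both sexes, 3 clock genes were called and 3 to 4 under each alternative and with any array left out. Of 45 reported single-gene differences recomputed, 792 values kept direction and side of the threshold, 33 lost the call, 23 gained one and 24 changed sign. Sign changes were of differences near 0: Arntl by strain was -0.011 after quantile and -0.0091 after cyclic loess normalization, -0.00042 with array weights and -0.034 with the interquartile range as a covariate, which gave 0.034 for Per3; Per1 in males was 0.20 with array weights. With 1 array left out, strain differences were -0.064 to 0.077 for Arntl, -0.086 to 0.086 for Per3, -0.097 to 0.0039 for Npas2, -0.0040 to 0.14 for Dbp and -0.14 to 0.084 for Per1 in males.

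Clock genes called by strain in males (0) were 3 with array weights, 2 with the covariate and 0 to 2 with 1 array left out; in females (2) they were 1 after quantile, 1 after cyclic loess, 1 among probe sets above the median mean, 4 with the covariate and 0 to 3. By sex in KK (1) they were 2 with array weights, 0 with only the groups compared and 0 to 1. Over all probe sets, array weights moved the count in males to 2423 from 1092, by sex in KK to 2058 from 460, by sex in C57BL/6J to 363 from 219 and of the interaction to 77 from 30. The covariate moved the count in males to 1673, in females to 2329 from 1378, by sex in C57BL/6J to 392 and by replicate number to 6 from 0; only the groups compared gave 190 by sex in KK. Leaving out 1 array gave 662 to 1163 in males (662 without KK male 1, 711 without C57BL/6J male 3), 905 to 1412 in females (905 without KK female 1), 160 to 512 by sex in KK (160 without KK female 1, 201 and 193 without KK males 1 and 2), 142 to 225 by sex in C57BL/6J (142 without C57BL/6J male 3), 19 to 35 for the interaction (19 without KK male 2 or C57BL/6J male 3) and 0 to 118 by replicate number (118 without KK female 1). The causes were not tested.

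With the replicate number as a block, 4 clock genes were called over both sexes, with Per1 added (adjusted p = 0.0151), 1 in males (Per2, 0.0249) and 3 in females (Per2 added, 0.0255). Whether the numbers pair mice was not tested, and 8 of 12 arrays correlated best with an array of their own number. The main fits hold no block, so any part shared by number stays in their spread within groups. The limits are 3 mice per group, 1 sampling time that the labels do not name, array values without single probes, and quantities recomputed from normalized values only.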
